A study of Mus musculus with 24 samples.

Results

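SMB cells transformed with RAS were compared with SMB cells kept in growth factors. The members were 10 arrays of 24 in the series, chosen by their titles: 7 of RAS transformed cells (RAS; 3 of line SMB21, 2 of SMB55 and 2 of SMB56) and 3 of growth factor cells (GF; 1 of each line). SMB lines were established from medulloblastomas, tumors of the cerebellum, that arose spontaneously in mice with 1 mutant copy of the Hedgehog receptor gene Ptch1, and all of these cells carry the Ptch1 mutation. They grow as neurospheres in DMEM/F12 with B27. GF cells had EGF at 20 ng/mL, bFGF at 20 ng/mL and 0.2% heparin for more than 3 weeks. The sources used here do not give the RAS gene, its vector or the medium of the RAS cells, so effects of RAS and of the medium cannot be told apart. The titles number the arrays of each line as biological replicates, but nothing says which of them came from separate cultures. The p-values then measure only the spread between these arrays, and how far it is that between separate cultures is not known.

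RAS proteins are switches at the membrane that, when bound to GTP, activate the kinases RAF, MEK and ERK, and receptors for EGF and FGF act through the same route. ERK induces early transcription factors such as FOS, JUN and EGR proteins, and it induces inhibitors of its own pathway, the dual-specificity phosphatases and Sprouty proteins. In granule neuron precursors of the cerebellum, Hedgehog signalling through SMO and GLI proteins maintains division.

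The deposited values were summary intensities of probe sets, and levels below are log2 of the intensity plus 16. Array medians of intensity were between 220.9 and 245.1. They were 220.9 to 225.8 on GF arrays and 222.7 to 223 on RAS arrays of SMB21, but 240.9 to 245.1 on RAS arrays of SMB55 and SMB56. In SMB55 and SMB56, parental array 1 had 223.9 and 221.5 and parental array 2 had 235.1 and 240.9. Differences are RAS minus GF with the line as a term, with a standard error (SE), and p-values are those of limma with Benjamini-Hochberg adjustment over 12394 genes. A gene was called changed at an adjusted p under 0.05. Arrays have no read depth, and the number of arrays, 1 GF array in each line, limits the precision. These are bulk samples, so fewer cells of a type and less RNA per cell cannot be told apart. Atoh1, the defining transcription factor of granule neuron precursors, had levels of 6.28, 11.19 and 6.47 on the GF arrays of SMB21, SMB55 and SMB56 and between 5.40 and 7.63 on the RAS arrays, against 11.79 to 12.97 on parental arrays. It was thus near the parental level on the SMB55 GF array and lower on the other GF arrays and on all RAS arrays. The summed intensity of 14 granule precursor genes was 6053 to 18040 on GF, 3275 to 16340 on RAS and 24200 to 39780 on parental arrays.

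Of the 12394 genes, 1383 were called (11.2%), 707 higher in RAS cells (5.7%) and 676 lower (5.45%). At least a 2-fold difference was seen for 343 of the genes called higher and 226 of those called lower, and at least a 4-fold difference for 116 and 47. Centring each array on its median gave 547 higher and 981 lower, a share of 35.8% higher in place of 51.1%, and the median difference of all genes was then -0.13 in place of -0.04. RAS arrays lay all on 1 side of the GF array in each line for 2809 genes (22.7%), among them 1176 of the called genes, and on 1 side of all GF arrays for 1200 genes (9.68%). The first principal component of the 10 arrays (33.4% of the variance) set SMB21 apart from the other lines, and on the next (29.3%) the GF arrays lay at 39.98 to 51.62 and the RAS arrays at -44.61 to 2.71.

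The count rested on single GF arrays. It was 457 without the GF array of SMB55 and 769 without that of SMB56. A further limit was found in the parental arrays, which had received neither treatment. Parental array 1 of each line differed from the other parental arrays of its line in the direction in which GF differed from RAS, with Pearson correlations across all 12394 genes of 0.365, 0.299 and 0.386 in SMB21, SMB55 and SMB56. Genes are not independent replicates. All GF arrays also carry the number 1, as does 1 RAS array of each line. In the order of the series, parental array 1 and the GF array of each line stand next to each other. They come before all RAS arrays and all other parental arrays. No label gives a batch. When GF was set against parental array 1 and RAS against the other parental arrays, 12 genes were called, 6 in each direction, with the SE 1.45 times as large. The median called gene then kept 0.782 of its difference, and 2 changed sign. Whether what parental array 1 and the GF arrays share has a part in the differences was not tested.

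**Figure D1:**
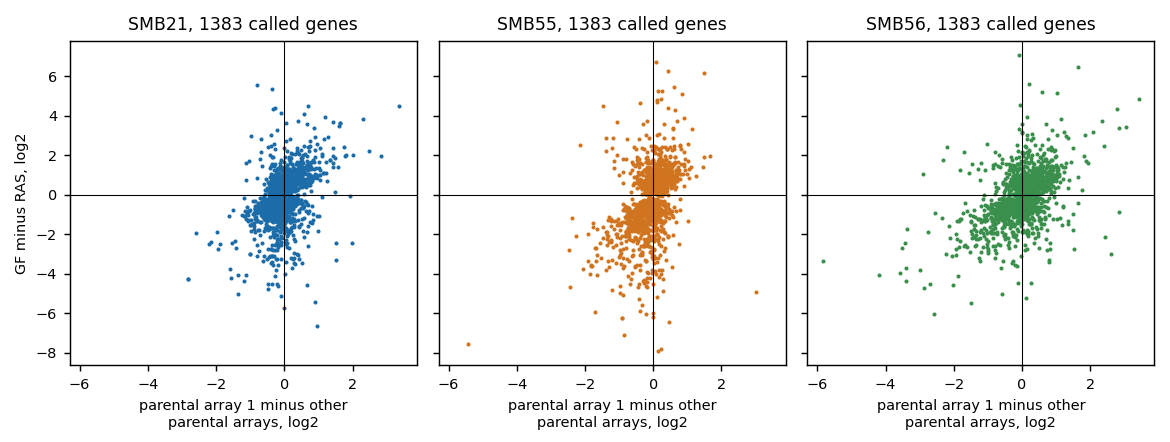
Each point is 1 of the 1383 called genes in 1 line. The horizontal axis is parental array 1 minus the mean of the other parental arrays of the line and the vertical axis GF minus the mean of RAS, both as log2 differences. The clouds lean upward to the right in all 3 lines, with Pearson correlations over these genes of 0.435, 0.437 and 0.51.

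**Figure D2:**
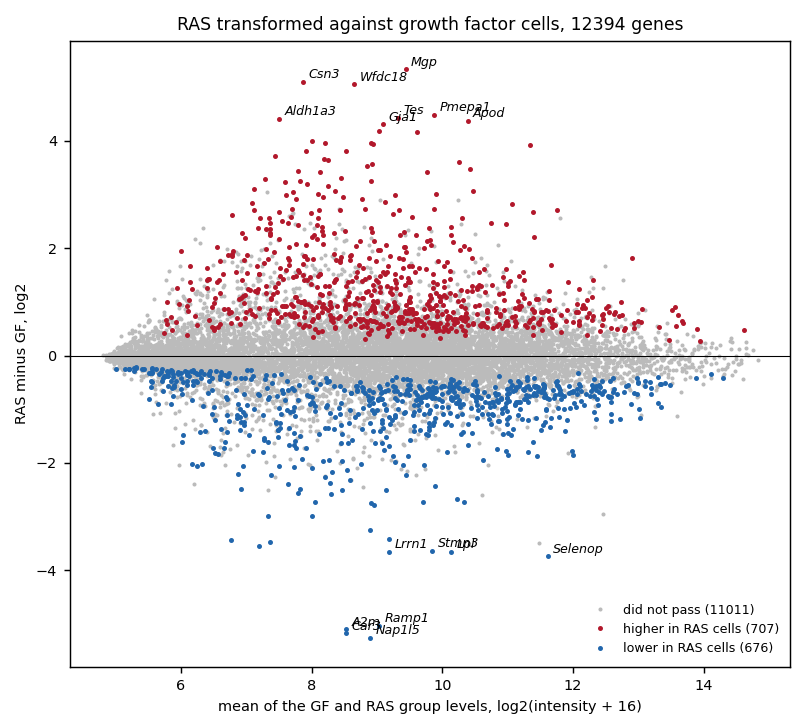
Each point is 1 of 12394 genes. The horizontal axis is the mean of the GF and RAS group levels, log2 of intensity plus 16, and the vertical axis is RAS minus GF in log2. The 707 genes called higher and the 676 called lower are coloured, and the 8 largest named rises and falls carry their symbols.

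The 8 largest rises named were of Mgp, Csn3, Wfdc18, Pmepa1, Tes, Aldh1a3, Apod and Gja1. Only called genes whose RAS arrays all lay above the GF array of their line, in each line, could be chosen. Separation within lines was thus fixed by the choice. Mgp, matrix Gla protein, an inhibitor of calcification, rose by 5.34 (SE 1.54, 40.5-fold, adjusted p = 0.0379). Its levels were 8.67, 5.74 and 5.88 on the GF arrays of SMB21, SMB55 and SMB56, and 9.16, 12.31 and 14.84 as the lowest, median and highest of the RAS arrays. Every RAS array was above every GF array. Parental array 1 of SMB55 and of SMB56 was low for Mgp, at -5.42 and -5.83 against the other parental array of the line. That other array was at 11.21 in SMB55 and 11.49 in SMB56, where the RAS arrays were lower, at 9.3 and 9.16. The call was lost without any 1 of 5 arrays, at limma adjusted p up to 0.194. Csn3, a casein of milk, was near the lowest level on the GF arrays (5.41, 5.35 and 5.40) and reached 6.84, 9.11 and 14.67 on the RAS arrays, a rise of 5.10 (SE 1.01, adjusted p = 0.00724; 0.0546 without the SMB55 GF array). Wfdc18, a whey acidic protein family member, rose by 5.06 (adjusted p = 0.0196), with 1 RAS array of SMB21 at 6.28, within the GF range of 5.93 to 6.46. Its adjusted p was 0.107 without the SMB55 GF array and 0.0564 without that of SMB56.

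Pmepa1, a transmembrane inhibitor of TGF-beta signalling, was at 5.86, 8.35 and 8.82 on the GF arrays and at 10.46, 12.49 and 12.80 on the RAS arrays. It rose by 4.48 (SE 0.69, adjusted p = 0.00227) with no overlap. Tes, a LIM protein of focal adhesions, rose by 4.43 (SE 0.97, adjusted p = 0.0118; 0.0721 without the SMB55 GF array), from 6.38, 7.28 and 7.82 to a median of 11.61. One RAS array of SMB21, at 6.67, overlapped the GF arrays of the other lines. Aldh1a3, an enzyme of retinoic acid synthesis, was at 5.19, 5.22 and 5.45 on the GF arrays and at 8.12, 9.62 and 11.41 on the RAS arrays (4.41, SE 0.47, adjusted p = 0.000242). All RAS arrays were higher. Apod, a lipid-binding apolipoprotein, rose by 4.37 (SE 0.74, adjusted p = 0.00348), from 10.45, 7.17 and 6.74 to 8.55, 13.31 and 14.31. The groups overlapped across lines, and separation within each line was a condition of the choice. Gja1, the gap junction protein connexin 43, rose by 4.31 (SE 0.70, adjusted p = 0.00258), from 5.66, 7.26 and 7.84 to 10.04, 11.29 and 11.91.

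The 8 largest falls named were of Nap1l5, Car3, A2m, Ramp1, Selenop, Lrrn1, Lpl and Stmn3. Separation of RAS from GF within each line was again a condition of the choice. Nap1l5, an imprinted member of the nucleosome assembly protein family, had levels of 11.98, 10.74 and 11.72 on the GF arrays and 5.84, 6.15 and 7.65 on the RAS arrays. It fell by 5.27 (SE 0.32, 38.5-fold, adjusted p = 8.38e-07), and parental arrays were at 6.02 to 8.03, near the RAS level. A2m, a protease inhibitor of plasma, was at 9.90, 10.46 and 12.90 on the GF arrays and at 5.56, 5.94 and 6.56 on the RAS arrays, and fell by 5.10 (SE 0.41, adjusted p = 1.12e-05). Parental arrays were again low, at 5.70 to 6.01. Ramp1, a partner of calcitonin family receptors, fell by 5.03 (SE 0.36, adjusted p = 3.66e-06), from 11.99, 11.28 and 11.13 to 5.54, 6.17 and 8.12. The groups did not overlap, and parental arrays lay at 5.92 to 9.23. Car3, carbonic anhydrase 3, fell by 5.17 (SE 0.81, adjusted p = 0.00243), from 11.46, 10.70 and 11.17 to 5.53, 5.97 and 6.52, while parental arrays ranged from 5.69 to 12.96.

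Selenop, a selenium carrier, fell by 3.74 (SE 0.55, adjusted p = 0.00201) from 13.25, 13.29 and 13.83 to a median of 9.92, with 10.96 as the highest RAS array. Lpl, lipoprotein lipase, fell by 3.66 (SE 0.65, adjusted p = 0.00451), from 12.31, 11.21 and 12.25 to 5.95, 8.89 and 10.67. Lrrn1, a leucine-rich repeat protein of neurons, fell by 3.66 (SE 0.58, adjusted p = 0.00243), from 11.46, 11.86 and 9.71 to 5.78, 7.42 and 9.23. Parental arrays were at 11.76 to 12.79, above the SMB56 GF array and near the GF arrays of the other lines. Stmn3, a stathmin of neuronal microtubules, was at 10.74, 13.85 and 10.55 on GF arrays, at 6.96, 7.24 and 9.68 on RAS arrays and at 11.22 to 13.13 on parental arrays. It fell by 3.64 (SE 0.70, adjusted p = 0.00643; 0.0531 without the SMB55 GF array).

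**Figure D3:**
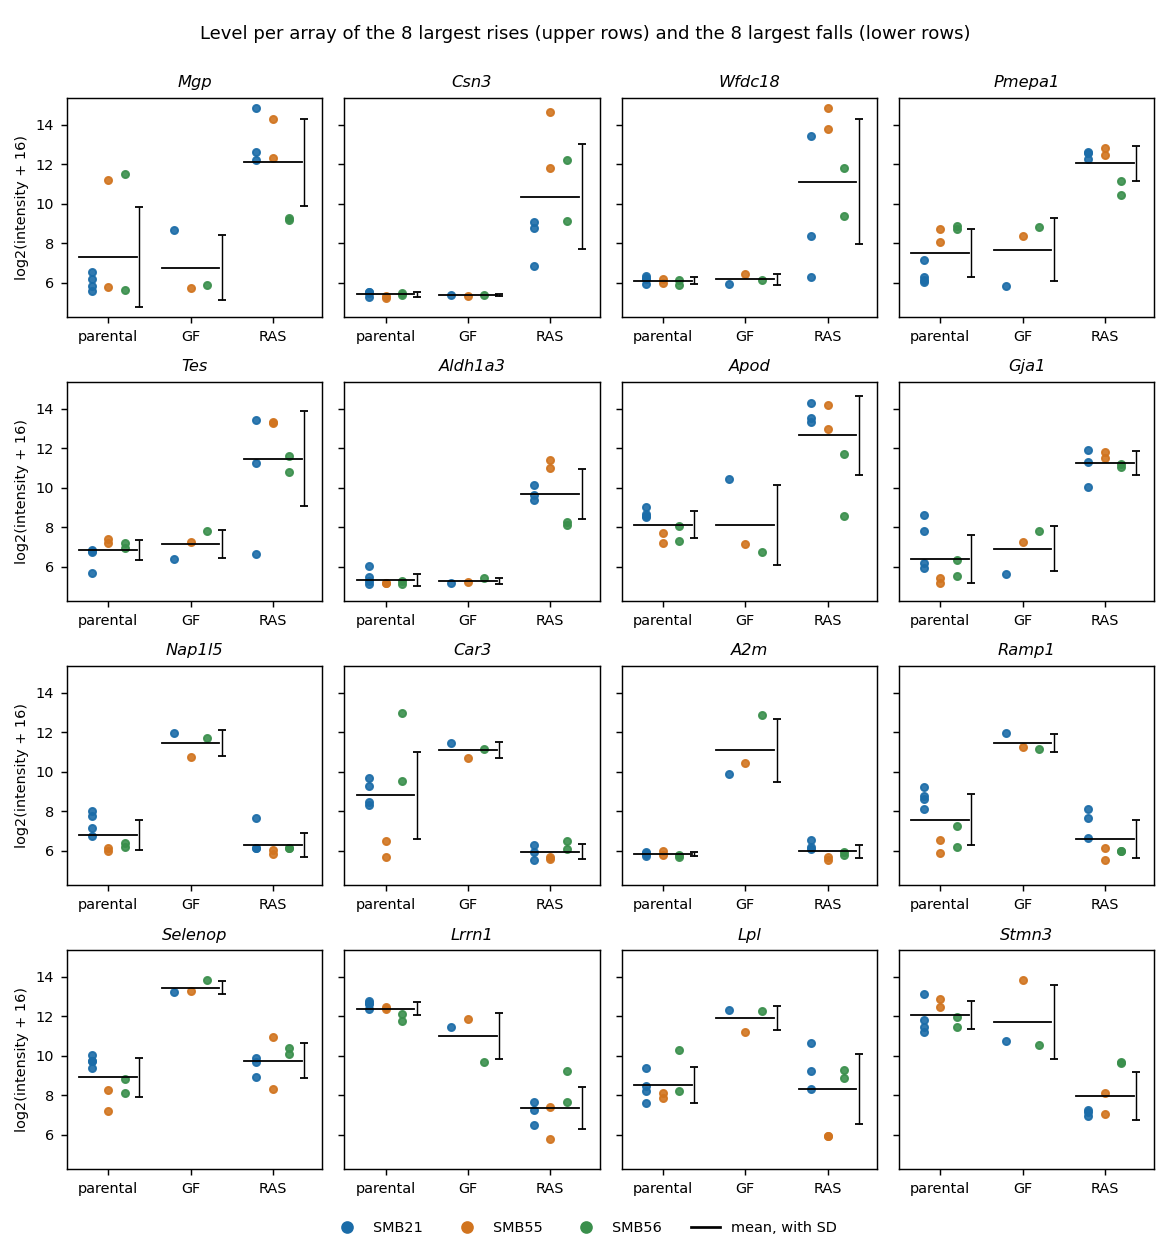
Levels, log2 of intensity plus 16, on each parental, GF and RAS array are shown for the 8 largest rises and the 8 largest falls, coloured by line. Horizontal lines are group means and bars are SD. Nap1l5 and A2m are high only on the GF arrays, at 9.90 or above, while parental arrays of Lrrn1 and Stmn3 lie above all RAS arrays, at 11.76 to 12.79 and 11.22 to 13.13.

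For each gene the line means were averaged over the lines within parental, GF and RAS cells, so single lines were not placed. The GF and RAS averages were set against the parental average, with 1 log2 unit as the margin. Of the 707 genes higher in RAS, 256 had GF within the margin and RAS above it, and 374 had both within it. For 40, GF lay below and RAS within. Of the 676 lower genes 477 had both groups within the margin, 89 had GF within and RAS below, and 87 had GF above and RAS within.

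Lists are described by their counts beside the shares of all genes tested, 5.7% higher and 5.45% lower, and list counts of 1 or 2 mostly rested on single arrays. Of 16 core genes of the RAS to ERK pathway, 1 was higher and 0 lower, with a median difference of 0.20. Rasa2, a GTPase activating protein that switches RAS off, rose by 1.57 (SE 0.35, adjusted p = 0.0128; 0.0786 without the SMB56 GF array), from 9.38, 10.35 and 9.68 to a median of 11.18. Nras, which encodes a RAS protein, was at 11.52, 11.72 and 11.55 on GF arrays and at a median of 11.67 on RAS arrays (difference -0.16, adjusted p = 0.694). Early genes and transcription factors induced by ERK had 7 of 20 members higher and 0 lower, with a median of 0.85. The share higher was 35% of this list and 5.7% of all genes tested, and without the SMB55 GF array 2 members were called. With only the 10 GF and RAS arrays in the fit 4 were higher, and without line SMB55 1 was. Egr2, an early zinc finger factor, rose by 2.32 (SE 0.41, adjusted p = 0.00458), from 7.58, 7.72 and 6.77 to 8.68, 8.91 and 11.41, and Atf3, a stress and growth induced factor, rose by 1.43 (SE 0.27, adjusted p = 0.00565), from 7.64, 7.52 and 7.78 to a median of 9.41. Both had no overlap. The AP-1 subunits Fosl1, Jun and Fosb rose by 1.89, 0.85 and 0.99 (adjusted p = 0.0215, 0.0183 and 0.0162), and all lost the call without the SMB55 GF array (0.112, 0.106 and 0.102), Fosl1 also without that of SMB21 (0.0733).

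Of 11 inhibitors that ERK induces in feedback, 3 were higher (27.3%) and 1 lower (9.09%), with a median of 0.57. Dusp2, a phosphatase of ERK, rose by 3.81 (SE 0.63, adjusted p = 0.00289), from 6.64, 6.51 and 6.59 to 7.62, 10.89 and 12.11, and Errfi1, an inhibitor of EGF receptors, rose by 2.12 (SE 0.28, adjusted p = 0.000812), from 8.73, 9.11 and 9.45 to 10.35, 11.33 and 12.04. Both groups stood apart. Dusp7 rose by 1.28 (adjusted p = 0.0261; 0.158 and 0.0614 without the GF arrays of SMB55 and SMB56). Spry2, a Sprouty inhibitor, went the other way, from 11.40, 11.37 and 11.94 to 9.78, 10.36 and 11.30 (fell by 1.18, SE 0.30, adjusted p = 0.0213; 0.0899 and 0.115 without the GF arrays of SMB55 and SMB56). Parental arrays had 8.30 to 9.97, so both treatments had more Spry2 than most of them. Dusp6, the ERK phosphatase most often used as a readout of the pathway, was at 12.19, 12.57 and 13.23 on GF arrays and at 12.81, 13.66 and 14.10 on RAS arrays (0.85, adjusted p = 0.121; 0.0331 without the SMB56 GF array), while parental arrays were at 9.81 to 11.41. Spry4 had a difference of 0.75 (adjusted p = 0.0918; 0.0132 without RAS replicate 3 of SMB21) and Etv5, an ETS factor, of 0.00 (adjusted p = 0.997).

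Growth factor receptors had 3 of 15 members higher (20% against 5.7% of all genes) and 1 lower; no member was called higher without the SMB55 GF array, nor without that of SMB56. Egfr, the receptor of the EGF in the GF medium, fell by 1.15 (SE 0.20, adjusted p = 0.00352), from 9.34, 8.41 and 8.97 to 7.37, 7.64 and 8.71. Parental arrays were at 7.64 to 8.60. Fgfr1, a receptor of bFGF, had a difference of 0.14 (adjusted p = 0.618). Of 10 EGF and FGF family ligands, Btc, betacellulin, was higher (2.51, adjusted p = 0.0277, lost without any 1 of 4 arrays) and Fgf9 lower (-1.24, adjusted p = 0.0159; 0.112 without the SMB55 GF array).

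The list with the highest median was that of TGF-beta ligands and response genes, at 1.12. Of 18 members, 9 were higher (50%, against 5.7% of all genes) and 1 lower (5.56%, against 5.45%), with 4 and 5 higher without the GF arrays of SMB55 and SMB56. With only the 10 GF and RAS arrays in the fit 6 were higher, and without line SMB55 3 were. Bmp2, a ligand of the family, rose by 3.99 (SE 0.60, adjusted p = 0.00207), from 5.24, 5.97 and 6.96 to 7.64, 9.46 and 12.25, with no overlap. Tgfbi, a secreted protein named for its induction by TGF-beta, was at 6.30, 6.07 and 6.07 on GF arrays and at 7.41, 9.55 and 12.03 on RAS arrays (3.25, SE 0.65, adjusted p = 0.00732). All RAS arrays were above all GF arrays. Ltbp1, which holds latent TGF-beta in the matrix, rose by 2.98 (SE 0.43, adjusted p = 0.00175), from 6.45, 7.13 and 9.96 to 9.15, 11.06 and 11.99, and Inhba, the subunit of activin A, rose by 2.95 (SE 0.50, adjusted p = 0.00352), from 6.35, 6.71 and 6.99 to 7.13, 10.29 and 10.82. The receptor Tgfbr2 rose by 1.67 (adjusted p = 0.0217; 0.0881 and 0.103 without the GF arrays of SMB55 and SMB56), and the corepressor Skil by 1.05 (adjusted p = 0.0112; 0.0821 without that of SMB55). Smad3, a transducer of the pathway, fell by 0.64 (SE 0.13, adjusted p = 0.0076), from 7.27, 7.002 and 7.22 to a median of 6.57.

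**Figure D4:**
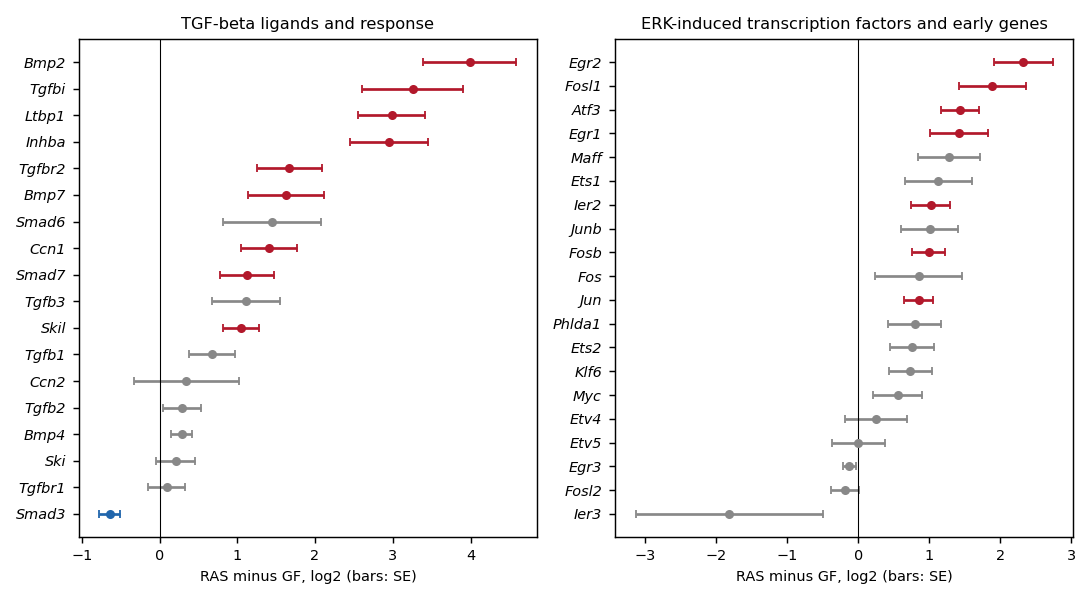
RAS minus GF in log2 is shown with its SE for each measured gene of the TGF-beta list (18) and of the ERK-induced list (20). Points in red were called higher, in blue lower and in grey not called. Bmp2, at 3.99, and Egr2, at 2.32, are the largest of each list.

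Genes of secreted proteases, matrix and cytokines also included called members. Of 17 matrix proteases and inhibitors, 5 were higher (29.4%, against 5.7% of all genes) and 0 lower, but 1 without the SMB55 GF array and 3 without that of SMB56, either RAS array of SMB55 or any 1 parental array of SMB21. Plat, tissue plasminogen activator, rose by 2.72 (SE 0.37, adjusted p = 0.0011), from 10.01, 10.24 and 10.97 to 12.31, 13.10 and 13.76, with no overlap. Plaur, the urokinase receptor, rose by 1.67 (SE 0.34, adjusted p = 0.00795; 0.0679 without the SMB55 GF array), from 9.82, 7.67 and 7.41 to 9.05, 10.29 and 10.68. Timp1, an inhibitor of metalloproteases, rose by 4.16 (SE 0.89, adjusted p = 0.0105; 0.0657 without the SMB55 GF array) and had 7.39, 7.57 and 7.49 against 7.42, 12.55 and 14.35. Its lowest RAS array lay among the GF arrays. Of 21 cytokines and chemokines 4 were higher (19%) and 0 lower, and 2 were higher without the GF array of SMB21 or of SMB55. Lif, leukemia inhibitory factor, rose by 2.71 (SE 0.43, adjusted p = 0.00243), from 7.07, 6.64 and 7.46 to 8.30, 10.05 and 11.02, and Il33, an alarm cytokine of the nucleus, rose by 1.82 (SE 0.29, adjusted p = 0.00243), from 8.97, 9.36 and 10.41 to 10.56, 11.05 and 12.45. Ccl2, a chemokine for monocytes, was not called (0.78, SE 0.91, adjusted p = 0.605), and its difference turned negative without SMB21, at -1.47 (adjusted p = 0.0143). Of 18 collagens and laminins, 3 were higher (16.7%) and 0 lower (1 higher without the SMB55 GF array), with a median of 0.91. Col18a1, a collagen of basement membranes, rose by 2.37 (SE 0.44, adjusted p = 0.00567), from 8.54, 7.23 and 7.42 to a median of 10.04. Of 20 annexins, S100 proteins and galectins, 2 were higher (10%) and 1 lower (5%), with 1 higher without the SMB55 GF array or either RAS array of SMB55 and 0 lower without the SMB56 GF array. Anxa1, an annexin of inflammation, rose by 3.92 (SE 0.47, adjusted p = 0.000472), from 11.005, 8.22 and 8.75 to 11.75, 13.38 and 14.51.

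Promoters of Plaur, Lif and Gja1 are shown because all of these genes rose and each holds a match to the AP-1 motif TGANTCA, to which FOS and JUN proteins bind. Capitals mark the match. The sequences are the 250 bases before the annotated start in RefSeq's GRCm38.p6 table, all on the plus strand, at chr7:24462233-24462482, chr11:4257318-4257567 and chr10:56377050-56377299. The motif, searched on both strands, was found in 4.77% of 797 windows of genes higher in RAS, 4.51% of 688 windows of genes lower and 5.68% of 12560 windows of all genes tested. The match is a description of these letters and the share was not above that of all genes.
Plaur: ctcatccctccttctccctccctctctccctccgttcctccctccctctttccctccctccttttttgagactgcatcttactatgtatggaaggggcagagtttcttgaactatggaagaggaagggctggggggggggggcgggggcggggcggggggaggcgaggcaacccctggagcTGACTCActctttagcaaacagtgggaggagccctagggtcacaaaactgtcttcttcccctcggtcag
Lif: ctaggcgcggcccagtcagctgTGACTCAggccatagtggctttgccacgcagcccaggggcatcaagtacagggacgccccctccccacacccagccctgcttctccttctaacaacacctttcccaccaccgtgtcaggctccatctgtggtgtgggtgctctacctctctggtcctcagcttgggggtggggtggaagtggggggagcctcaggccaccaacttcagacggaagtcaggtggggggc
Gja1: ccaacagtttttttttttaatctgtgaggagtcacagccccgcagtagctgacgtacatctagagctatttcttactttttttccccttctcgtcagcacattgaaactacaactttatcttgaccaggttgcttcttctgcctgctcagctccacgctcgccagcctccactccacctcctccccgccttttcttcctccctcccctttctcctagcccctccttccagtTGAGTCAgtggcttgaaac

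Of 11 Hedgehog targets, 2 were higher (18.2%, against 5.7% of all genes) and 0 lower, with a median of -0.40. None was higher without the SMB21 GF array, 1 was higher without RAS replicate 1 of SMB55, and 1 was lower without parental array 1, the GF array or either RAS array of SMB56. Gli1, the target that also acts as a transcription factor, was at 8.39, 8.18 and 5.93 on GF arrays and at 5.84, 6.74 and 8.79 on RAS arrays (-0.71, SE 0.46, adjusted p = 0.324), with parental arrays at 8.62 to 10.38. The groups overlapped, as they did for the receptor Ptch1 (-0.40, adjusted p = 0.572), the inhibitor Hhip (-0.67, adjusted p = 0.508) and Sfrp1 (0.25, adjusted p = 0.767). Mycn, a growth-promoting target, had 8.69, 11.13 and 6.91 against 5.89, 7.96 and 8.56 (-1.23, adjusted p = 0.189; 0.0138 without the SMB56 GF array). Ccnd1, the cyclin of the first gap phase, rose by 0.91 (SE 0.20, adjusted p = 0.0105; 0.0609 without the SMB21 GF array), from 12.43, 13.38 and 13.55 to 13.69, 14.00 and 14.42. Of 9 receptors and transducers, 3 were lower (33.3%, against 5.45% of all genes) and 0 higher, with 0 and 1 lower without the GF arrays of SMB55 and SMB21. Smo, the signalling receptor, fell by 0.69 (SE 0.14, adjusted p = 0.00853; 0.0703 without the SMB55 GF array), from 11.19, 11.07 and 10.63 to a median of 10.15.

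Called markers of neural and other cell types were 0 to 3 in each list. Atoh1 had a difference of -1.86 (SE 0.79, adjusted p = 0.133). Granule precursor factors had 1 of 14 higher and 1 lower (7.14% each; 3 lower without the GF array of SMB21 or of SMB56), with Insm1, a zinc finger factor of dividing precursors, at 7.56, 9.65 and 6.81 on GF arrays and 5.29, 5.41 and 6.50 on RAS arrays (fell by 2.21, SE 0.51, adjusted p = 0.015; 0.111 without the SMB55 GF array). Neuronal cytoskeleton genes had 1 of 19 higher (5.26%) and 2 lower (10.5%; 4 and 1 without the GF arrays of SMB21 and SMB55), and Elavl3, an RNA-binding protein of neurons, fell by 1.48 (SE 0.26, adjusted p = 0.00394), from 7.54, 8.81 and 6.99 to 6.03, 6.28 and 6.64. Of 11 mature granule neuron genes 1 was lower (9.09%; 0 without the SMB56 GF array), and of 18 stem cell genes 1 was higher (5.56%; 0 without the GF array of SMB55 or of SMB56). Astrocyte genes had 1 of 15 higher, Gja1 (6.67%), and 2 lower (13.3%; 1 without the GF array of any line), of which Mlc1, a membrane protein of astrocyte end-feet, fell by 3.48 (SE 0.53, adjusted p = 0.0022), from 9.49, 8.42 and 9.30 to 5.06, 5.46 and 7.15. Oligodendrocyte genes had 0 of 12 called, microglia 0 of 17 and fibroblast genes 0 of 13. Purkinje genes had 1 of 8 higher (12.5%), lost without any 1 of 12 arrays. Endothelium and pericyte genes had 2 of 15 higher (13.3%; 0 and 1 without the GF arrays of SMB21 and SMB55) and 1 lower (6.67%; 0 without the GF array of SMB55 or of SMB56). Of 10 marker lists, the summed intensity overlapped between GF and RAS arrays in 9, while for endothelium and pericyte it was 2340 to 2744 on GF and 3407 to 7395 on RAS arrays. Parental arrays ranged from 835.2 to 5232 for this sum. The median difference of the list was -0.02, with 7 of 15 members positive. What part the difference in this sum has in other results was not tested.

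Dll3, a Notch ligand, fell by 2.32 (SE 0.52, adjusted p = 0.0136; 0.069 without the SMB55 GF array) and was the 1 call among 11 Notch genes. The list of cell cycle inhibitors and p53 targets had 3 of 19 higher (15.8%, against 5.7% of all genes) and 4 lower (21.1%, against 5.45%), with 2 lower without the GF array of SMB55 or of SMB56. Phlda3, a p53-induced inhibitor of AKT, rose by 3.02 (SE 0.45, adjusted p = 0.00201) and Zmat3, a p53 target, fell by 0.99 (SE 0.17, adjusted p = 0.00342), while Cdkn1b, the inhibitor p27, fell by 0.89 (SE 0.17, adjusted p = 0.00603). Genes of DNA replication and mitosis had 0 of 29 higher and 6 lower (20.7%, against 5.45% of all genes), with a median of -0.52. The lower count was 0, 2 and 3 without the GF arrays of SMB55, SMB21 and SMB56, 1 without either RAS array of SMB55 and 3 without RAS replicate 1 of SMB21. With only the 10 GF and RAS arrays in the fit it was 0. Mcm2, a subunit of the replicative helicase, fell by 0.71 (adjusted p = 0.0257; 0.164 without the SMB55 GF array). Amino acid synthesis and stress genes had 0 of 18 higher and 5 lower (27.8%), with a median of -0.73. Without the GF arrays of SMB55 and SMB56 there were 1 and 2 lower, without RAS replicate 2 of SMB55 there were 2, and without any 1 of 6 other arrays there were 3. With only the 10 GF and RAS arrays in the fit, 1 was lower. Shmt2, the mitochondrial enzyme of serine and glycine metabolism, fell by 1.61 (SE 0.26, adjusted p = 0.00258), from 11.98, 12.35 and 12.23 to 9.89, 10.44 and 11.30. Of 20 glycolysis genes, Pfkp, a phosphofructokinase, rose by 2.59 (SE 0.47, adjusted p = 0.00471) and 1 was lower (5% each way). Adhesion and integrin genes had 2 of 18 higher (11.1%) and 3 lower (16.7%), with 0 higher and 1 lower without the GF array of SMB55 or of SMB56 and 4 higher without that of SMB21, with Itga4 falling by 0.57 (SE 0.09, adjusted p = 0.00298). Genes of epithelial to mesenchymal transition and of the Wnt pathway each had 1 higher and 1 lower of 16 (6.25%), and the insulin-like growth factor axis 1 higher of 13 (7.69%). In these 3 lists each of these calls was lost without the SMB55 GF array. Interferon-stimulated genes had 0 of 17 called, antigen presentation 0 of 11 and cholesterol synthesis 0 of 15. For 6 of the 17 interferon-stimulated genes, however, the difference varied with the line by the F test, against 4.08% of all genes. They were Ifit3, Irf7, Irf9, Oasl2, Usp18 and Mx1.

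**Figure D5:**
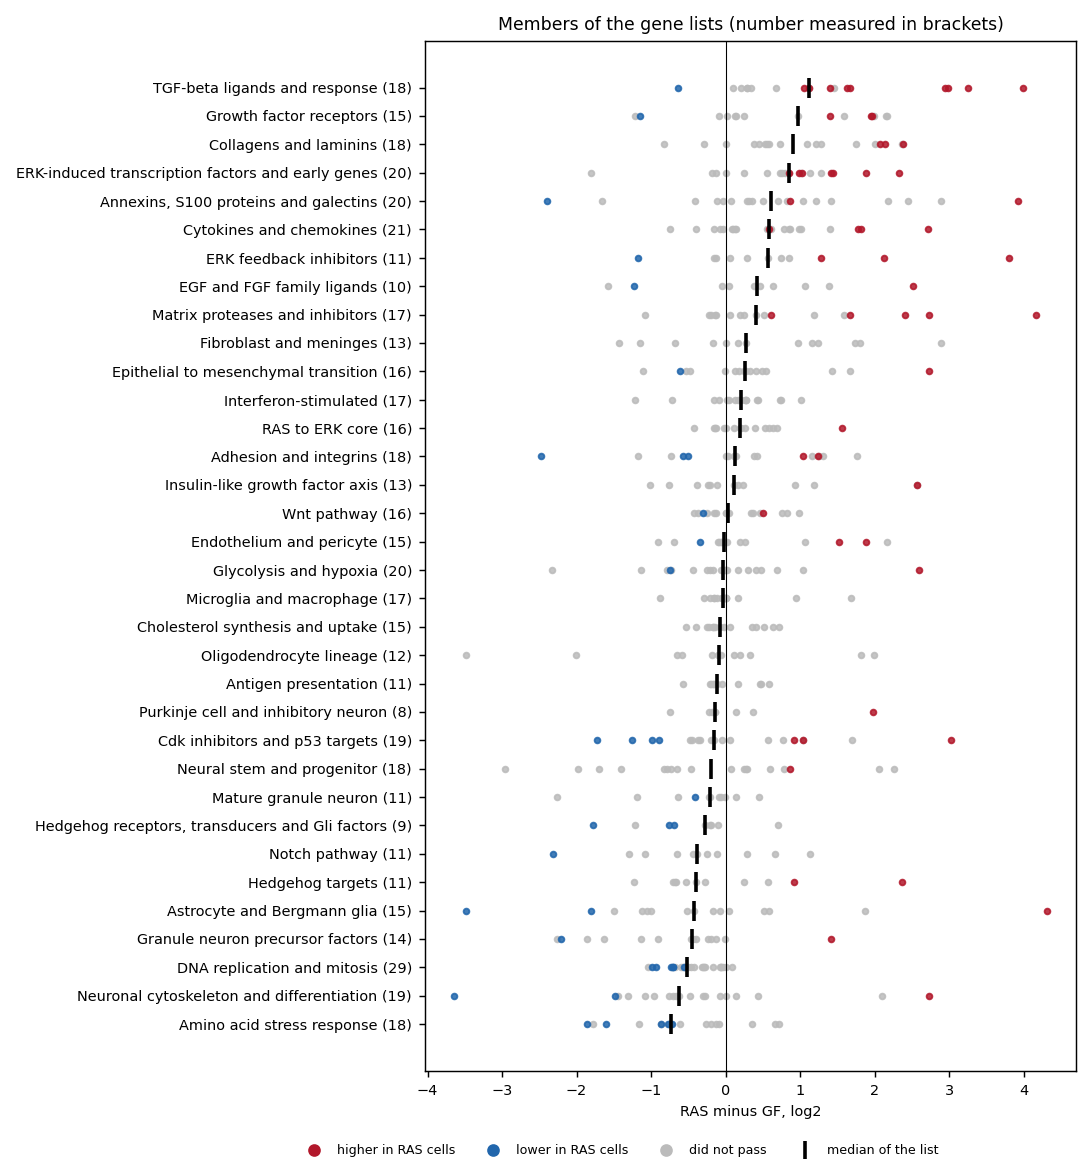
Each point is a gene of 1 of the 34 lists, placed by RAS minus GF in log2, with black bars for the list medians. Red and blue mark called genes. The TGF-beta list has the highest median, 1.12, and the amino acid stress list the lowest, -0.73.

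The difference between RAS and GF varied with the line for 506 genes (4.08%), of which 74 were called in the comparison over all lines. Pmepa1 differed by 6.64 in SMB21, 4.29 in SMB55 and 1.98 in SMB56 (F test, limma adjusted p = 0.00543). Timp1 differed by 5.75, 5.58 and 0.74 (adjusted p = 0.0417), Inhba by 4.04, 3.80 and 0.76 (adjusted p = 0.0154) and Lif by 3.28, 3.80 and 0.90 (adjusted p = 0.0475). In these 4 genes SMB56 had the smallest difference. A2m fell most in SMB56, by 7.04, and by 3.60 and 4.84 in SMB21 and SMB55 (adjusted p = 0.000328).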

How the data were processed

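Affymetrix mouse arrays of 18 SMB cell samples (8 parental, 3 GF, 7 RAS) were used; groups came from the titles. The deposited values are linear summary intensities per probe set, per the labels from biotin labelled total RNA; the sources used here do not give how the authors summarised or normalised them. Of 22690 probe sets, 20393 have 1 gene symbol, 691 several and 1606 none. Each of 12394 genes was represented by its brightest probe set (mean of the 24 arrays), and names were matched to the GRCm38.p6 table (20364 probe sets).

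limma 3.58.1 under R 4.3.3 was run on log2 of the intensity plus 16, with treatment and line as terms on the 18 arrays, two-sided. Parental arrays enter only the estimate of spread and line. The F test by line used 9 means.

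Genes named are the 8 top calls in each direction by size (brighter group at or above the median of all values, 8.35, and no overlap of arrays within a line, predicted genes passed over), up to 2 called members of each of 34 lists, and a set always given (76 genes); 58 more were chosen after their values were seen, among them Tgfbi, Inhba, Timp1, Smad3, Cdkn1b and Ccl2. The comparison and the lists were chosen with earlier results of these data known, and the lists were given no test. Alternatives were other arrays in the fit, terms, scalings, pseudocounts, filters and probe set rules, and leaving out each array or line.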

Additional observations from a re-analysis of the deposited data

Results flagged for a closer look

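Of 134 genes examined, 5 had 1 RAS array far from the other 6; by chance about 1 in 20 groups would. Cdkn2a was at 13.33 on RAS replicate 2 of SMB56, against 12.92 to 13.05 on the others. Mlc1 was at 7.15 on that array, against 5.06 to 5.96. Nap1l5 was at 7.65 on RAS replicate 3 of SMB21, against 5.84 to 6.15. Plin2 was at 9.77 on RAS replicate 2 of SMB55, against 6.84 to 7.43. Tes was at 6.67 on RAS replicate 2 of SMB21, against 10.78 to 13.41.

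For 15 genes the difference between RAS and GF depended on the line by limma's F test, and in each line GF is 1 array. In SMB21, SMB55 and SMB56, Usp18, a regulator of interferon responses, differed by 5.48, -1.10 and -4.19 (adjusted p = 0.0003281), and Ccl2 by 4.45, -1.81 and -1.12 (adjusted p = 0.00086), so both were higher in RAS cells of SMB21 alone. Atoh1 differed by -0.36, -5.47 and 0.23 (adjusted p = 0.01548), Dll3 by -1.99, -4.61 and -0.24 (adjusted p = 0.001334) and Stmn3 by -3.62, -6.25 and -0.89 (adjusted p = 0.02446), each most in SMB55, where GF cells had the most Atoh1. Rgs5, a pericyte gene, differed by 3.26, 0.68 and 0.34 (adjusted p = 0.004712), and Plaur by 0.54, 2.89 and 1.66 (adjusted p = 0.009913). Differences were smallest in SMB56 for Aldh1a3 (adjusted p = 0.01708), Dusp2 (adjusted p = 0.04048), Errfi1 (adjusted p = 0.01741), Inhba (adjusted p = 0.01536), Lif (adjusted p = 0.04746), Pmepa1 (adjusted p = 0.005425) and Timp1 (adjusted p = 0.04167). A2m differed most there (adjusted p = 0.0003281).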

How the results depend on the processing

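The 1383 calls (707 higher, 676 lower) became 898 (418 lower) with the 10 arrays alone, 781 (398 and 383) with no line term and 53 (33 and 20) with 1 mean per line and treatment. Leaving out 1 array gave 457 to 1659 calls, 208 to 828 higher and 249 to 831 lower, lowest without the SMB55 GF array and highest without SMB56 parental array 1; without the SMB56 GF array there were 769 (394 and 375). Without line SMB55 there were 222 (110 and 112), and without SMB21 435 lower. Setting GF against parental array 1 and RAS against the other parental arrays, chosen after seeing the data, gave 12 (6 and 6). Leaving out parental array 1 of each line, also chosen then, gave 1873 (933 and 940). With the replicate block there were 161 calls (94 and 67) in the 18 arrays and 0 (0 and 0) by limma in the 10 arrays, where 2080 genes had an unadjusted p under 0.05. Across genes, deviations from the treatment mean on GF and RAS arrays numbered 1 correlated at 0.204, 0.018 and 0.137 in SMB21, SMB55 and SMB56. These were not all above 0.1, so the numbers were not taken to pair the arrays. The deviations also hold line differences, and RAS replicate 3 of SMB21 had 0.221 with its GF array, so they could not decide pairing by number. Ccl2 turned to -1.4661 without line SMB21. Pseudocounts, quantile scaling, the filter on low values, probe set rules and the variance prior kept the count between 1320 and 1437, and centring gave 1528. The causes of these changes were not tested. Intensities near the lowest values compress differences.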

Other observations

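Genes of lipid storage were examined after the values of Lpl were seen. Plin2, a coat protein of lipid droplets, was lower in RAS cells (-2.74, SE 0.65, limma adjusted p = 0.017; 0.0808 and 0.0721 without the GF arrays of SMB21 and SMB56), as was Thrsp, a regulator of lipid synthesis (-2.51, adjusted p = 0.0239; 0.139 without the SMB55 GF array). G0s2, an inhibitor of lipolysis, was lower too (-2.50, adjusted p = 0.0362; lost without any 1 of 6 arrays). Fasn, Scd1, Pparg and Fabp4 were not called, with differences of -0.28, 0.36, -0.52 and -0.15. Parental array 1 minus the other parental arrays was 1.59, 1.11 and 3.06 for Plin2 in SMB21, SMB55 and SMB56. For Lpl it was 1.28, 0.27 and 2.09, in both genes the direction of GF. The sign varied by line for Thrsp (-1.11, 0.63 and 1.82) and G0s2 (2.30, -2.14 and -2.92).

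Imprinted genes, also chosen after seeing values, moved in both directions. Besides Nap1l5, Peg3 was lower (-2.03, limma adjusted p = 0.0485, lost without any 1 of 15 arrays) and Mest was not called (-1.88, adjusted p = 0.107). Mest was called lower without the SMB21 GF array or without RAS replicate 2 of SMB21, at limma adjusted p down to 0.0389. Phlda2 was higher (2.35, adjusted p = 0.0189; 0.129 without the SMB55 GF array), as were Dlk1 (2.66, adjusted p = 0.0319; lost without any 1 of 5 arrays) and Igf2 (2.37, adjusted p = 0.0308; 0.098 and 0.149 without the GF arrays of SMB21 and SMB56, and 0.0542 without RAS replicate 1 of SMB55).

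Csn3 rose, while the milk genes Csn2 and Wap and the keratin Krt8 had differences of -0.10, -0.27 and -0.01 and were not called.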
